A study of Mus musculus with 384 samples.

Results

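Myc and the genes that build ribosomes were followed in single GMPs (granulocyte/macrophage progenitors), from which the marrow makes its monocytes and neutrophils. The gene set was fixed by name and holds 37 members: Myc, its relative Mycn and their partner Max, 32 genes that make, modify or assemble ribosomal RNA, and the polyamine enzymes Srm and Odc1. All 37 were found among the 46078 gene rows of the count tables, of which 31777 had a read in the cells kept. Cells came from C57Bl/6 mice of the Scl-tTA::TRE-BCR/ABL model, in which a transactivator under control of the Scl gene's elements drives BCR-ABL, the fusion oncogene of chronic myeloid leukaemia. Mice were raised on doxycycline at 20 mg per L and lost it at 5 weeks of age, which switches the transgene on, and BCR-ABL and control mice were analysed 5 to 6 weeks later. The labels do not give the genotype of the controls, nor whether each set is 1 animal. Single cells that carried c-Kit, CD34 and the Fcγ receptor, and lacked Sca-1 and lineage antigens, were sorted into 96-well plates and read by SMART-seq2, which copies transcripts over their length and marks neither strand nor molecule. There are 3 BCR-ABL sets (replicates 1, 2 and 4) and 1 Control set, so the Control set and its plate cannot be told apart.

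Myc is a transcription factor that binds DNA as a pair with Max, most strongly at the motif CACGTG, called an E-box. Among its best known targets are genes of ribosome production: RNA polymerase I copies the ribosomal DNA in the nucleolus, small nucleolar ribonucleoproteins (snoRNPs) modify the precursor, and sets of assembly factors cut and fold it into the small and large subunits. Growing myeloid progenitors make many ribosomes, and this output falls as neutrophils mature.

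RefSeq promoter windows on build GRCm38.p6 (250 bases before to 50 bases after each start) were at hand for 29 of the 37 members. Myc, Tcof1, Fbl, Rrp12, Rrs1, Bop1, Npm1 and Srm were not matched. The letters CACGTG, which read the same on both strands, stood in the windows of 6 of 29 members (20.7%), against 8.09% of 27025 genes with a window. The letters CACGCG or their reverse complement CGCGTG, a variant that Myc and Max also bind, stood in 9 of 29 members (31%) against 10.5%, and these forms can overlap one another and CACGTG in part. Such a match is a string of letters and not a measured binding site. These 6 E-boxes are shown first because they are the stretches of these genes that a Myc and Max pair could recognise, with the E-box in capitals, 5′ to 3′ on the gene's strand:

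Nop2, chr6:125131811-125131840, plus strand, first base 60 before the start: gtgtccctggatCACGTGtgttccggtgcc
Wdr43, chr17:71616220-71616249, plus strand, at base 18 after the start: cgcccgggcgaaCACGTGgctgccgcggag
Grwd1, chr7:45830740-45830767, minus strand, at base 35: gggccggagtcgCACGTGtgaaaccgga
Pes1, chr11:3963965-3963994, plus strand, at base 3: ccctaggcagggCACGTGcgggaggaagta
Max, chr12:76962234-76962263, minus strand, first base 3 before the start: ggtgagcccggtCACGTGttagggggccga
Utp20, chr10:88826765-88826789, minus strand, at base 38: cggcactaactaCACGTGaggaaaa

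Longer context is given for a pair of members, each with the 250 bases before its start and the motif in capitals. Nop2, a methyltransferase of the large subunit's RNA, had the highest level in TPM (121) of the 6 members with an E-box. Nolc1, a nucleolar phosphoprotein, was picked after its values had been seen, as it had the largest change among members that passed between cell cycle classes, and it carries the variant motif 25 bases before its start.

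Nop2, chr6:125131633-125131882, plus strand: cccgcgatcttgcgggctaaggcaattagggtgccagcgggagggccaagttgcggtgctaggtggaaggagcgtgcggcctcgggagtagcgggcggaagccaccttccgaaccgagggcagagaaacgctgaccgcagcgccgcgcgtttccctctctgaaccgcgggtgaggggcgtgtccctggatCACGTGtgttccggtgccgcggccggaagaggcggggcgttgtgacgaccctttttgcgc
Nolc1, chr19:46075597-46075846, plus strand: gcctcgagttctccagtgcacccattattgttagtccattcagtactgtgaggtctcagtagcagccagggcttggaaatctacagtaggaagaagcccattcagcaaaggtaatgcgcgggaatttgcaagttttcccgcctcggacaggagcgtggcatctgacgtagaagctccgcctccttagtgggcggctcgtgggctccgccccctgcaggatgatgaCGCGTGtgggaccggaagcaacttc

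Of 96 wells per set, 76, 61 and 92 wells of BCR-ABL replicates 1, 2 and 4 and 94 Control wells were kept, with 121378632 to 140995697 reads on genes per set. Xist, read from the inactive X chromosome, reached 5 CPM (counts scaled to an equal total per library) in 75, 0, 3 and 94 of these wells, so the sets differ in the sex of the cells. The gate genes Kit (239 to 314 CPM), Fcgr3 (569 to 688 CPM) and Cd34 were read in every set. Cd34 stood at 146, 180 and 158 CPM with BCR-ABL and at 440 CPM in Control. The 12 monocyte markers summed to 6080, 6850 and 5440 CPM against 9420 CPM, and the 15 neutrophil markers to 66600, 62900 and 70600 CPM against 56600 CPM. The 4 eosinophil markers summed to 1260 CPM in BCR-ABL replicate 4 and to at most 6.26 CPM elsewhere, so that set stands apart. The values for the members below carry these differences in cell make-up, and their part in the results was not tested.

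Levels were compared between genes in TPM, which divides reads by exon length, over the sum of all kept wells of a set. Exon length was the union over all annotated transcripts, so the order of genes depends on it. Srm, which makes spermidine, Nhp2, a protein of the box H/ACA snoRNP, and the nucleolar chaperone Npm1 were the highest members, with means over the 4 sets of 738, 734 and 602 TPM. Myc came next in that order at 447 TPM, above the nucleolar protein Ncl at 292 TPM. That step rests on exon lengths of 2717 bases for Myc and 10188 bases for Ncl. In CPM Ncl was the higher, with BCR-ABL means of 1240 against 527 CPM and Control values of 1130 against 396 CPM. The order of the highest is not resolved: Srm ran from 566 to 884 TPM and Nhp2 from 630 to 856 TPM over the sets, so their ranges overlap. At the low end stood Fbl, the methyltransferase of the box C/D snoRNP, at 6.32 TPM, the small subunit factor Utp20 at 8.13 TPM and Polr1a, the largest subunit of RNA polymerase I, at 8.53 TPM. Members of one complex were thus unlike in TPM, as with the box C/D proteins Nop56 (170 TPM) and Nop58 (60.6 TPM) beside Fbl. In CPM, Nop56 and Nop58 were close, with BCR-ABL means of 283 and 271 CPM, and Fbl stood at 10.4 CPM. Fbl was still read in 91.4% to 98.9% of wells, while Rrp12, at a BCR-ABL mean of 41.9 CPM, was read in 55.6% to 69.2%. Whether the counts of Fbl miss a part of its reads was not tested. For Nop56, Nop58, Gnl3, Ncl, Ppan, Wdr43 and others, snoRNA genes lie within the gene or another gene overlaps their exons, and without a strand setting such reads cannot be told apart.

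**Figure D1:**
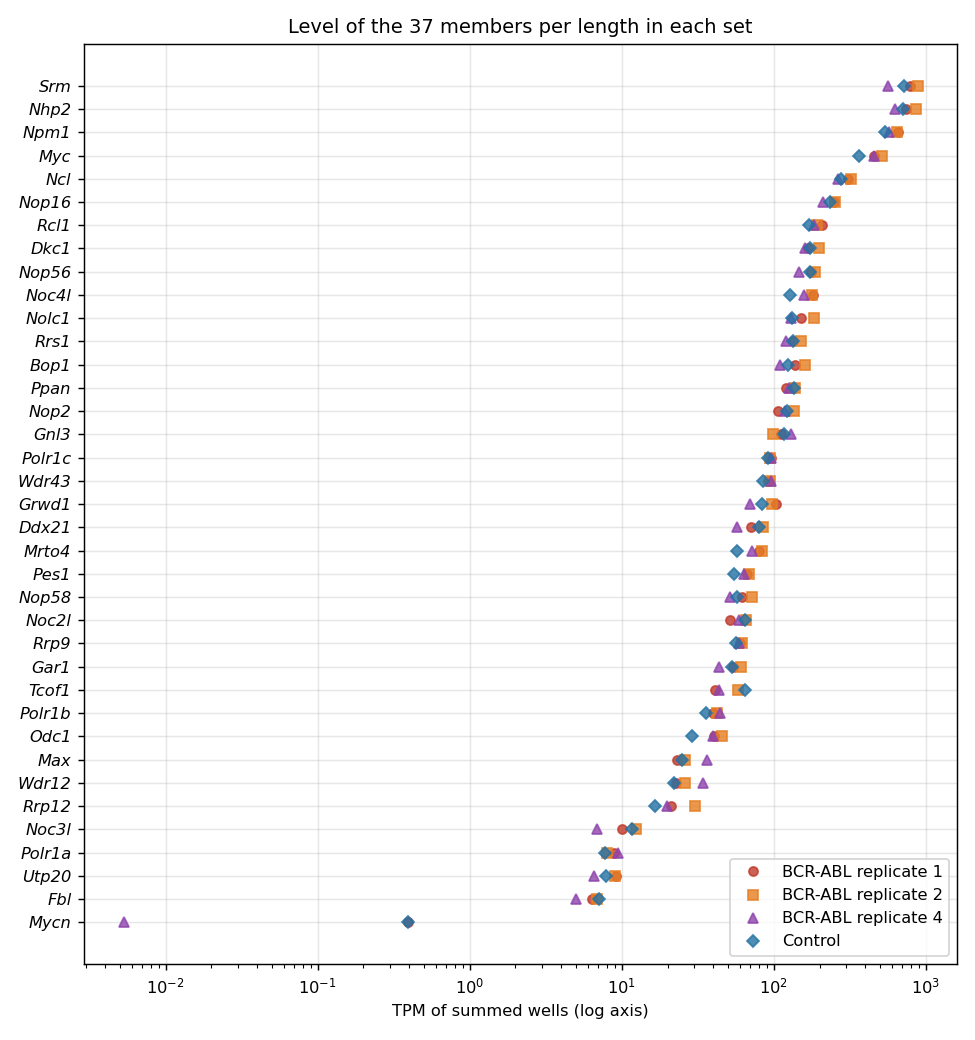
Level of each member in TPM (log axis) in the summed wells of each set, with 1 point per set. Members run from 6.32 TPM (Fbl) to 738 TPM (Srm) on average, Mycn lies below 1 TPM, listed at 0 in BCR-ABL replicate 2 and therefore not drawn there, and for most members the 4 sets lie close together.

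Myc transcripts (chromosome 15, 61985391 to 61990374, plus strand, mm10) were read in 64 of 65, 53 of 54, 80 of 81 and 90 of 90 wells after thinning all wells to 674952 reads. The summed level was 512, 564 and 506 CPM in the BCR-ABL sets, 527 ± 32 (SD, n = 3), and 396 CPM in Control. Control was below all 3 BCR-ABL sets, as it was for 23.2% of genes tested. The log2 fold change was 0.43 (SE 0.14), with an unadjusted p of 0.0301 and an adjusted p of 0.669 (edgeR quasi-likelihood test, Benjamini-Hochberg over 20324 genes), so Myc did not pass. Mycn was read in 1 of 65, 0 of 54, 0 of 81 and 2 of 90 wells, and the 0 counts allow shares of up to 5.56% and 3.70%. Max, read in 76.7% to 83.3% of wells, stood at 34.1, 38 and 52.9 CPM against 36.1 CPM, a range that holds the Control value.

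The comparison of BCR-ABL with Control asks whether induction shifts these genes in the GMP population as a whole. Summed over the 37 members, reads came to 7278, 7794 and 6545 CPM with BCR-ABL, 7206 ± 628 (SD, n = 3), and to 6579 CPM in Control. Control lay below BCR-ABL replicates 1 and 2 and beside replicate 4. A sum over wells cannot tell fewer cells of a type from less RNA per cell. No member passed the test, and 0 of 20324 genes did (percent called 0). Before adjustment, at a p under 0.05 (called the nominal level from here on), 4 members were higher (Myc, Odc1, Noc4l and Mrto4) and 0 lower, where 3.79% of all genes were higher and 3.39% lower. Of the members, 29 had a positive log2 fold change, with a median of 0.13 beside 0.05 over all genes. Without BCR-ABL replicate 1 or 2, no member was higher at that level and the median was 0.09 and 0.08, beside 0.036 and 0.035 over all genes. Without replicate 4 more members were higher, and the median was 0.17 beside 0.023. In sums of wells thinned to equal depth, 22 members were positive, 1 was higher at that level and the median was 0.06 beside 0.03, and with no filter on low counts 1 was higher and the median of 0.13 lay below the 0.20 over all genes. DESeq2 called 394 genes higher and 163 lower, none of them a member.

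Polyamines are needed for growth, and Odc1 makes the first of them. It stood at 56.9, 63.3 and 55.1 CPM against 39.6 CPM, with all 3 BCR-ABL sets above Control (log2 fold change 0.58, SE 0.19, adjusted p = 0.669 with edgeR). Srm, the next enzyme, stood at 514, 574 and 368 CPM against 462 CPM, on either side of Control. Of the small subunit factors, Noc4l stood at 192, 189 and 166 CPM against 133 CPM (log2 fold change 0.48, SE 0.18, adjusted p = 0.694). Of the large subunit factors, Mrto4 stood at 86.1, 88.5 and 75.6 CPM against 60.1 CPM (0.49, SE 0.19, adjusted p = 0.695) and Pes1, of the Pes1, Bop1 and Wdr12 complex, at 82.5, 84.2 and 78.3 CPM against 66.6 CPM (0.32, SE 0.16, adjusted p = 0.772). Control lay below all 3 BCR-ABL sets for each of these but Srm, as it did for 23.2% of all genes tested. Mrto4 has pseudogenes named for it, with which its reads may be shared. Pseudogenes were looked up by the name of the member alone, so copies of other members under other names would be missed.

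Other members lay above, below or on either side of Control. Rrp12, a small subunit factor, stood at 37.7, 53.2 and 34.9 CPM against 28.9 CPM (log2 fold change 0.56, SE 0.32, adjusted p = 0.805 with edgeR). It was read in 55.6% to 69.2% of wells. Wdr12 stood at 111, 126 and 165 CPM against 107 CPM (0.34, SE 0.25, adjusted p = 0.831). For the polymerase I subunits, Polr1b was at 95.5, 99.3 and 105 CPM against 83.8 CPM (adjusted p = 0.787), while Polr1c was at 87 to 90.2 CPM against 83.8 CPM. Tcof1, a factor of ribosomal DNA transcription, went the other way, at 89.2, 124 and 92.8 CPM against 137 CPM (log2 fold change -0.40, SE 0.24, adjusted p = 0.812). Among nucleolar chaperones, Ncl stood at 1280, 1330 and 1100 CPM against 1130 CPM, and Npm1 at 719, 701 and 614 CPM against 575 CPM. Across all members, Control lay below all 3 BCR-ABL sets for 14 of 37 (37.8%, where 23.2% of genes tested did so) and above all 3 for Tcof1 and Fbl alone (5.4%, where 27.8% did).

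A module score was taken per well as the mean of log2(thinned CPM + 1) over the 34 members other than Myc, Mycn and Max. Its mean was 6.13, 6.27 and 5.78 in the BCR-ABL sets, 6.06 ± 0.26 (SD, n = 3), and 6.05 in Control, a difference of 0.01 that is smaller than the spread between sets. The score varied more from well to well in the BCR-ABL sets, with SDs of 0.948, 0.933 and 1.02, than in Control, with an SD of 0.675. The lowest, median and highest wells were 3.39, 6.37 and 7.65 in replicate 1, 4.14, 6.42 and 7.60 in replicate 2, and 2.93, 5.68 and 7.83 in replicate 4. In Control they were 3.22, 6.10 and 7.35. The highest well of each BCR-ABL set lay above that of Control, and the lowest lay below it in replicate 4 alone. With 1 Control set the difference in spread was not tested.

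Levels of the members ran together from well to well. Over pairs of the 34 score genes, the median Spearman rho was 0.255, 0.264 and 0.262 in BCR-ABL replicates 1, 2 and 4 (n = 65, 54 and 81 wells) and 0.106 in Control (n = 90), beside 0.021, 0.018, 0.017 and 0.008 over pairs of the 7741 genes read in at least 50% of wells of every set. These are descriptions, since wells of a set share a plate and a preparation. Ncl followed the mean of the other members most closely (mean rho over the 4 sets 0.739), then Srm (0.671), Nhp2 (0.573), Nolc1 (0.568) and the H/ACA pseudouridine synthase Dkc1 (0.567). Polr1c (0.125), Polr1a (0.188) and Noc3l (0.203) followed it least. The score also ran with the number of genes read after thinning (rho 0.57, 0.60, 0.53 and 0.45) and with reads per well (0.37, 0.50, 0.46 and 0.07), and their part in it was not tested.

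Outside the set, the 10 genes most like the score by mean rho within the 4 sets were Gm5297, Pa2g4, Gm12020, Ldha, C1qbp, Ptges3-ps, Phgdh, Fkbp4, Ranbp1 and Hspd1, from 0.698 down to 0.627. Pa2g4 (0.691) encodes a nucleolar growth regulator, Ldha (0.666) lactate dehydrogenase, C1qbp (0.664) a mitochondrial matrix protein, Phgdh (0.641) the first enzyme of serine synthesis, Fkbp4 (0.634) a co-chaperone, Ranbp1 (0.630) a regulator of nuclear transport, and Hspd1 (0.627) the mitochondrial chaperonin. Gm5297, Gm12020 and Ptges3-ps are annotated as processed pseudogenes and may share reads with their parent genes.

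The score had a weak and uneven relation to Myc itself. Spearman's rho between the score and Myc was 0.10, -0.18 and 0.37 in BCR-ABL replicates 1, 2 and 4 and 0.23 in Control, over the same wells. Single members were positively related to Myc in 24, 14 and 33 of 34 cases in the BCR-ABL sets and in 30 of 34 in Control, where 41.4%, 39.7%, 63.9% and 53.9% of all genes were. The sign thus differed between sets for the members and for genes at large. Within G2/M wells alone rho was 0.39, -0.36, 0.39 and 0.13, and within S wells alone 0.14, 0.15, 0.21 and 0.35. Max had rho values of 0.01 to 0.10 with the score. In each set rho with Myc was below rho with the S-phase score, which were 0.50, 0.77, 0.52 and 0.37. These are unlike measures, since Myc is 1 gene and the S-phase score, like the module score, is a mean over many (42 genes).

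**Figure D2:**
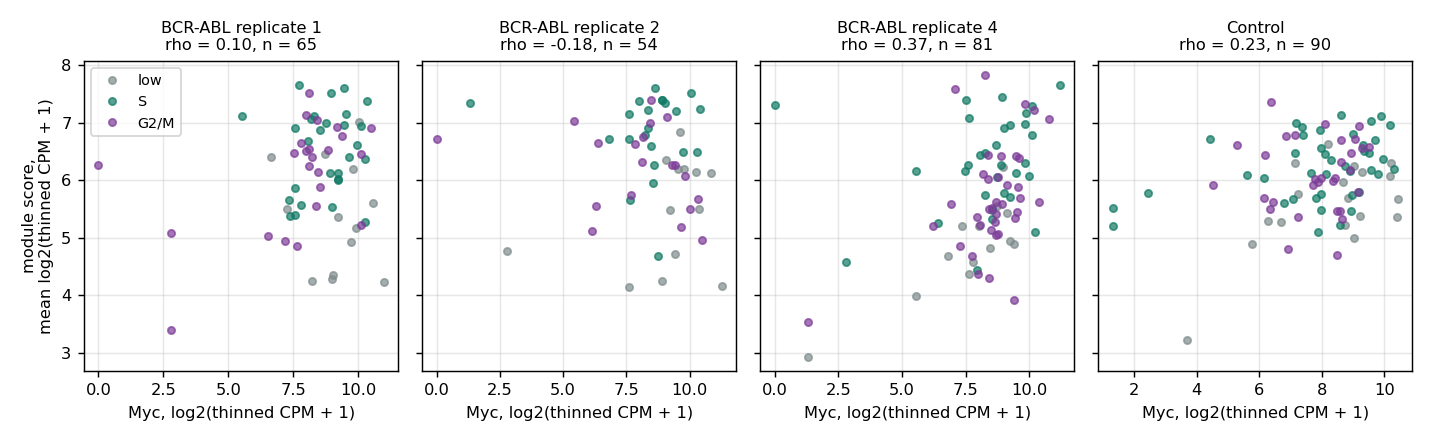
Module score per well against Myc in the same well, both from reads thinned to equal depth, with 1 panel per set and wells coloured by cell cycle class (low, S and G2/M). The cloud is flat in BCR-ABL replicates 1 and 2 (rho 0.10 and -0.18) and tilts upwards in replicate 4 and Control (0.37 and 0.23), and 1 well in each BCR-ABL set has no Myc read.

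Ribosome production is tied to growth and division, so wells were grouped by cell cycle genes that include no member. A well was called S or G2/M by the higher of its S and G2/M scores, standardised within its set, and low where both were below the set's mean. These classes are ranges of a score, and 7 wells lay within 0.1 SD of a limit. Low, S and G2/M wells numbered 13, 28 and 24 in BCR-ABL replicate 1, 13, 22 and 19 in replicate 2, 13, 31 and 37 in replicate 4, and 18, 41 and 31 in Control. Counts were summed per class and set, and compared with the set as a block.

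S wells had more ribosome biogenesis transcripts than low wells in every set. The module score was 6.51 against 5.36 in replicate 1, 6.82 against 5.45 in replicate 2, 6.30 against 4.83 in replicate 4, and 6.22 against 5.58 in Control. In summed reads, 36 of 37 members had a positive log2 fold change (median 0.55, beside 0.10 over all genes), and 5 passed the test as higher, where 0.596% of 17453 genes did (edgeR). At the nominal level, 21 members were higher and 0 lower, where 10.1% and 5.61% of genes were. Median genes read after thinning were 7750 to 7903 in low wells and 8281 to 8864 in S wells, and the part of this in the result was not tested. Fate, taken up below, differed too. Wells with Gfi1, a neutrophil-fate marker, and without Irf8 made up 11 of 13, 7 of 13 and 11 of 13 low wells in BCR-ABL replicates 1, 2 and 4. They made up 12 of 28, 4 of 22 and 23 of 31 S wells there, and 1 of 18 low and 3 of 41 S wells in Control. The part of fate in the result was not tested.

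The 5 that rose come from several steps. Nolc1 (chromosome 19, 46075863 to 46085530, plus strand), the promoter of which is shown above, stood at 155, 191, 111 and 146 CPM in low wells and at 332, 411, 279 and 296 CPM in S wells of BCR-ABL replicates 1, 2 and 4 and Control (log2 fold change 1.13, SE 0.12, adjusted p = 0.0228 with edgeR). Each S value was above every low value. Noc4l (chromosome 5, 110648418 to 110653417, minus strand) stood at 130, 120, 90.5 and 82.2 CPM in low wells and 239, 233, 212 and 151 CPM in S wells in the same order (0.98, SE 0.10, adjusted p = 0.0228). Ncl (chromosome 1, 86344719 to 86359400, minus strand), the most abundant nucleolar RNA-binding protein of the set in CPM, stood at 951, 916, 906 and 990 CPM against 1550, 1660, 1260 and 1270 CPM (0.59, SE 0.08, adjusted p = 0.0324). Again no low sum reached an S sum. Srm (chromosome 4, 148591503 to 148594993, plus strand) stood at 413, 481, 212 and 325 CPM against 620, 695, 469 and 574 CPM (0.76, SE 0.11, adjusted p = 0.0354), higher in S in 4 of 4 sets though the low sum of replicate 2 exceeded the S sum of replicate 4. Mrto4 (chromosome 4, 139347435 to 139352576, minus strand) stood at 57.5, 59.2, 44 and 50.5 CPM against 103, 110, 94.1 and 65.4 CPM (0.79, SE 0.14, adjusted p = 0.0476).

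These calls rest on having all 4 sets. With BCR-ABL replicate 1, 2 or 4 or Control left out, 0 members passed and 0, 1, 2 and 5 of all genes were called higher, while 16, 15, 13 and 17 members were higher and 0, 0, 1 and 0 lower at the nominal level and the median lay between 0.47 and 0.64. Of 16931, 17041, 16585 and 16621 genes tested, 1329, 1371, 1408 and 1649 were higher and 761, 796, 828 and 1023 lower at that level. Without the set as a block 2 members passed as higher, where 91 of 15461 genes did. DESeq2 called 13 members higher, where it called 1125 of 17453 genes.

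Other members showed like sizes without passing. Grwd1, a large subunit factor, had the largest log2 fold change of those named here at 1.5 (SE 0.40, adjusted p = 0.128), from 63.9, 29.5, 9.10 and 48.5 CPM in low wells to 114, 112, 73.6 and 81.4 CPM in S wells. Bop1 had 0.99 (SE 0.19, adjusted p = 0.0633) and Npm1 0.43 (SE 0.09, adjusted p = 0.0835). Those near 0 included Pes1 (0.03, SE 0.11) and Wdr12 (0.03, SE 0.18), the partners of Bop1, and Max (0.04, SE 0.22, adjusted p = 0.958).

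Myc had no such order over the classes. It stood at 723, 976, 362 and 576 CPM in low wells, 555, 495, 555 and 434 CPM in S wells and 405, 474, 507 and 278 CPM in G2/M wells of BCR-ABL replicates 1, 2 and 4 and Control. Low wells had the most Myc in 3 of the 4 sets and the least in BCR-ABL replicate 4. The log2 fold change was -0.34 (SE 0.25, adjusted p = 0.572) for S and -0.66 (SE 0.25, adjusted p = 0.319) for G2/M against low wells.

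By module score, G2/M wells lay between low and S wells in every set and nearer to S. Their scores were 6.10, 6.20 and 5.67 in BCR-ABL replicates 1, 2 and 4 and 6.10 in Control. In summed reads the median change from low wells was smaller for G2/M than for S wells. By set, the median log2 ratio of G2/M to low wells was 0.10, 0.13, 0.50 and 0.06 in the same order. Members had a median log2 fold change of 0.15 beside 0.09 over all genes, 0 of 37 passed, where 0.464% of genes were called higher and 0.0745% lower, and 5 were higher and 1 (Myc) lower at the nominal level, where 8.25% and 4.92% of genes were. Noc4l came nearest, with 166, 175, 155 and 133 CPM in G2/M wells and a log2 fold change of 0.58 (SE 0.10, adjusted p = 0.0513 with edgeR). Without BCR-ABL replicate 1, 2 or 4 or Control, 3, 5, 1 and 6 members were higher and 0, 0, 2 and 0 lower at the nominal level. Of 16931, 17041, 16585 and 16621 genes tested, 1133, 1185, 1199 and 1317 were higher and 653, 719, 742 and 799 lower. The difference between S and G2/M wells was not tested.

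**Figure D3:**
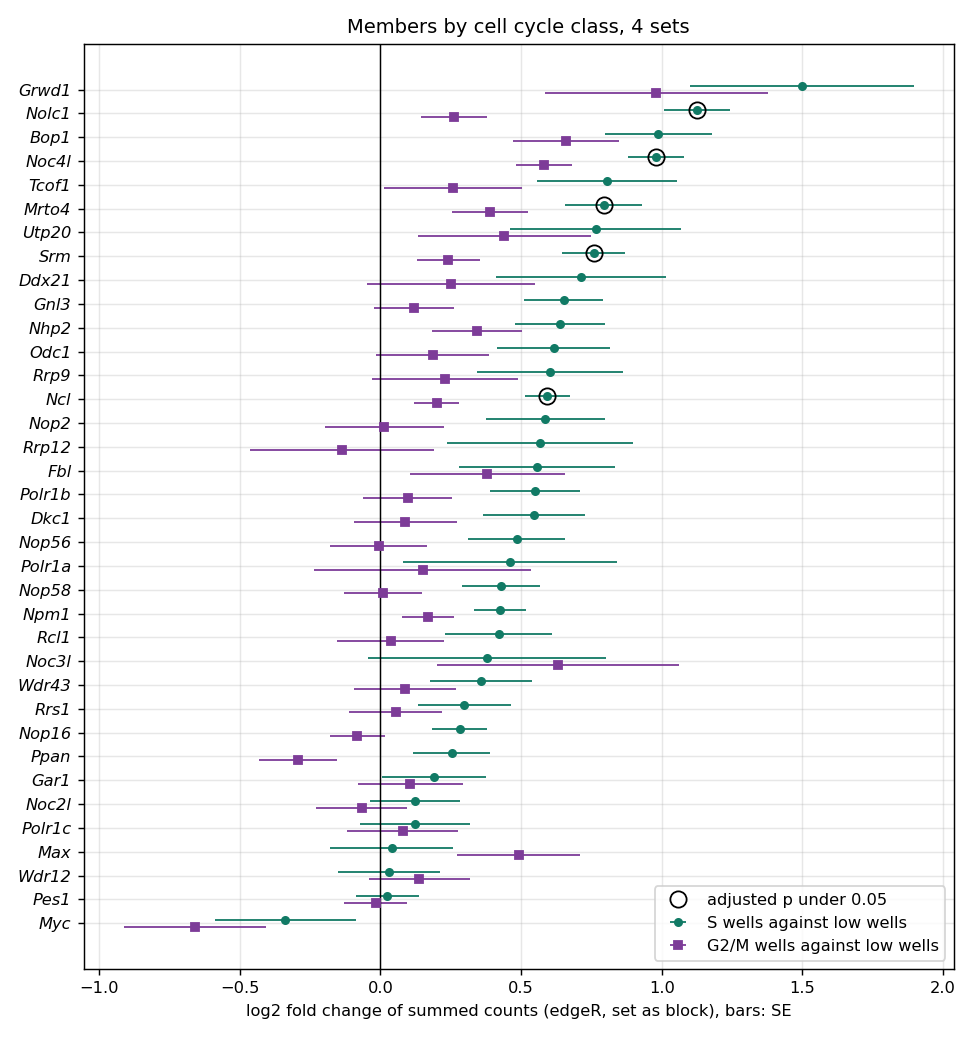
Log2 fold change of each member (Mycn left out) in S wells (circles) and G2/M wells (squares) against wells low for both scores, from summed counts of 4 sets with the set as a block; bars are standard errors. Rings mark Nolc1, Noc4l, Mrto4, Srm and Ncl, which passed in the S comparison, and Myc lies lowest in both.

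The rest of the pathway was read from lists that exclude the members. In S against low wells, the small subunit processome had 12 of 43 genes higher and 0 lower at the nominal level and large subunit assembly 16 of 51 higher and 0 lower, with medians of 0.31 and 0.33 and no gene past the adjusted test. For this and the next lists, the shares over all genes were 10.1% higher and 5.61% lower at the nominal level, and 0.596% past the test as higher. Utp15 (1.23, SE 0.24, adjusted p = 0.0661) and Eif6 (0.63, SE 0.12, adjusted p = 0.0581) had the smallest p of these lists. Among snoRNP assembly genes 4 of 10 were higher, and Ruvbl2, an ATPase of the assembly chaperone, passed (0.74, SE 0.09, adjusted p = 0.0228). Of 17 further polymerase I genes 6 were higher and 1 lower, of 9 p53 and nucleolar stress genes (7 of them tested here) 0 were either, and of 30 other Myc targets 24 were higher, 9 of them past the test, among them Ran, Bzw2 and Cad, the first enzyme of pyrimidine synthesis (1.07, SE 0.15, adjusted p = 0.0352). Of 10 tested Myc network genes 1 passed: Mxd3, a Max-binding antagonist that is known for its S-phase expression, with a fitted value that rests on near-empty low wells and is not given. In BCR-ABL against Control none of these lists had a gene past the test. There, large subunit assembly had 4 of 51 genes higher and 0 lower at the nominal level, the small subunit processome 1 of 43 higher and 1 lower, the Myc network 4 of 11 higher and 1 lower, and polymerase I, snoRNP assembly, other Myc targets and p53 lists 0 in either direction. Over all genes, 3.79% were higher and 3.39% lower at that level in this comparison.

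GMPs hold cells turning to the monocyte fate, marked by the transcription factor Irf8, and to the neutrophil fate, marked by Gfi1. With a limit of 10 thinned reads, only BCR-ABL replicates 1 and 2 held at least 10 wells of both pure classes (35 Gfi1-only and 13 Irf8-only, and 16 and 14). The planned comparison therefore rests on these 2 sets with 1 residual degree of freedom. There, 32 of 36 members tested were lower in Gfi1-only wells (median log2 fold change -0.54, beside 0.03 over all genes), 18 were lower and 1 higher at the nominal level, where 6.45% and 6.99% of genes were, and 0 members and 0 of 14181 genes passed with edgeR, the smallest adjusted p being 0.338. DESeq2 called 13 members lower and Myc higher. Ncl stood at 969 and 956 CPM in Gfi1-only and 1590 and 1660 CPM in Irf8-only wells (log2 fold change -0.75, SE 0.07), Bop1 at 114 and 131 against 242 and 267 CPM (-1.06, SE 0.13), and Nolc1 at 175 and 143 against 338 and 401 CPM (-1.22, SE 0.19). Myc stood the other way, at 576 and 608 CPM in Gfi1-only and 406 and 384 CPM in Irf8-only wells (0.59, SE 0.10, adjusted p = 0.338). With at least 20 reads as the limit, Control also held 10 Gfi1-only wells and entered with 53 Irf8-only wells, 5 members were lower at the nominal level and the median was -0.34. At that limit without Control they were 18 and -0.53, and at 10 reads with Control's 8 Gfi1-only wells let in, 8 and -0.33. In the same order, 909 of 15250, 840 of 14370 and 868 of 15006 genes were lower at that level.

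To bring in all 4 sets, wells with at least 20 Irf8 reads, with or without Gfi1, were set against Gfi1-only wells. This grouping was chosen after the scores per class had been seen, and 36 wells had 5 to 20 reads of either gene. Irf8-positive and Gfi1-only wells numbered 25 and 37, 32 and 15, and 12 and 63 in the BCR-ABL sets, and 76 and 10 in Control. The score of Irf8-positive wells was 6.80, 6.64 and 6.67 in BCR-ABL replicates 1, 2 and 4 and that of Gfi1-only wells 5.69, 5.46 and 5.64, a difference of 1.11, 1.18 and 1.02 (mean 1.11 ± 0.08, SD, n = 3). In Control the scores were 6.06 and 6.24, a difference of -0.19. All 3 BCR-ABL sets thus lay on the other side of 0 from Control, whose Gfi1-only value comes from 10 wells.

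**Figure D4:**
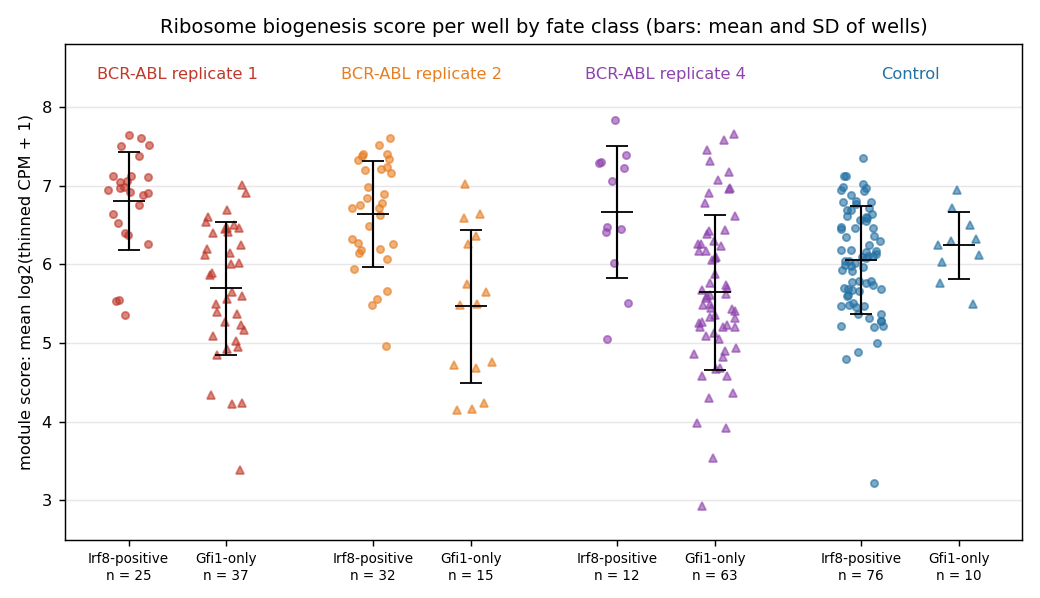
Module score of each well by set and fate class, with circles for Irf8-positive and triangles for Gfi1-only wells and bars for the mean and SD over wells. Irf8-positive wells sit about 1 unit higher in each BCR-ABL set (differences 1.11, 1.18 and 1.02) and at much the same level in Control (-0.19).

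Cell cycle class moved with fate. Low wells made up 4%, 15.6% and 0% of Irf8-positive and 29.7%, 46.7% and 19% of Gfi1-only wells in the BCR-ABL sets, and 19.7% and 20% in Control. Within S wells the score difference was 1.09, 1.39 and 0.73 in the BCR-ABL sets and -0.24 in Control, and within G2/M wells 0.98, 0.07 and 0.93 against 0.00. Within S and G2/M wells it was thus above 0 in each BCR-ABL set, though barely so in G2/M wells of replicate 2. There the SD over wells was 0.71 in Irf8-positive and 0.63 in Gfi1-only wells. The part of cell cycle class in the score difference was not tested. Few wells of 1 class stood behind several of these values: the S value of replicate 2 rests on 3 Gfi1-only wells and its G2/M value on 5, the S value of replicate 4 on 5 Irf8-positive wells, and the Control values on 4 Gfi1-only wells each. Among low wells it was -0.10 and 1.33 in replicates 1 and 2 and -0.50 in Control, with 1, 5 and 15 Irf8-positive wells and 11, 7 and 2 Gfi1-only wells. Over all wells, rho of the score with the neutrophil marker score was -0.56, -0.54 and -0.64 in the BCR-ABL sets and -0.06 in Control, and rho with Irf8 was 0.50, 0.51 and 0.29 against -0.03. Reads per well differed too, with medians of 1982372, 2592112 and 2023923 in Irf8-positive and 1667318, 1492307 and 1396732 in Gfi1-only wells of the BCR-ABL sets and of 1297887 and 902874 in Control, before thinning.

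In summed reads of the BCR-ABL sets, 34 of 37 members were higher in Irf8-positive wells (median log2 fold change 0.60, beside -0.04 over all genes) and 23 were higher and 0 lower at the nominal level, where 6.81% and 6.2% of 19180 genes were. None passed with edgeR (smallest adjusted p 0.200), and DESeq2 called 21. In Control the median was -0.02 beside 0.20 over all genes, with 2 members higher and 3 lower at that level, where 8.39% and 3.37% of genes were. The difference between BCR-ABL and Control in this effect, taken from the same fit, had a median of 0.59 over members beside -0.28 over all genes. The value over all genes depended on the processing, at -0.092 with DESeq2 and -0.672 with no filter on low counts. Of the members 13 were higher and 1 lower at the nominal level, where 2.36% and 7.04% of genes were, 0 passed, and DESeq2 called 9. Without BCR-ABL replicate 1 fewer members were higher at that level, and the median was 0.46 beside -0.26 over all genes. Without replicate 4, the set with eosinophil transcripts, the median was 0.55 beside -0.163.

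The members with the smallest p for this difference were from several steps. Gnl3, the nucleolar GTPase nucleostemin, stood at 202, 131 and 284 CPM in Gfi1-only and 345, 285 and 491 CPM in Irf8-positive wells of the BCR-ABL sets, and at 408 and 278 CPM in Control (difference of log2 fold changes 1.42, SE 0.22, adjusted p = 0.408 with edgeR). Srm stood at 405, 374 and 316 CPM and 653, 620 and 630 CPM, against 583 and 453 CPM in Control (1.14, SE 0.19, adjusted p = 0.408). In both genes the Control set had more transcript in Gfi1-only wells and the BCR-ABL sets less. Polr1b stood at 67.7, 69 and 93.9 CPM and 110, 118 and 169 CPM, against 106 and 77.8 CPM (1.19, SE 0.22, adjusted p = 0.410). Ncl stood at 963, 938 and 1020 CPM and 1670, 1460 and 1630 CPM, against 1090 and 1110 CPM (0.65, SE 0.12, adjusted p = 0.410). All Irf8-positive sums of Ncl with BCR-ABL exceeded all Gfi1-only ones, while the pair of Control sums lay close together. Grwd1 and Mrto4, with adjusted p of 0.410 each, completed the 6 smallest.

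Myc and Max did not follow. Myc stood at 547, 592 and 508 CPM in Gfi1-only and 465, 547 and 522 CPM in Irf8-positive wells of the BCR-ABL sets, and at 512 and 368 CPM in Control (difference 0.34, SE 0.17, adjusted p = 0.636). The highest Irf8-positive BCR-ABL value exceeded the lowest Gfi1-only one. Max stood at 41.9, 43.4 and 55.7 CPM and 27.3, 36.5 and 38.7 CPM, against 22.1 and 33.8 CPM (difference -1.11, SE 0.37, adjusted p = 0.486), lower in Irf8-positive wells in 3 of 3 BCR-ABL sets and higher in Control. In all, 26 of 37 members had more CPM in Irf8-positive wells in all 3 BCR-ABL sets, where 16.8% of 19180 genes did. Of these, 13 had less in the Control set, where 5.17% of genes had this pattern, and 13, among them Noc4l, Tcof1 and Rrp12, had more in all 4 sets, where 11.5% did. Max was the 1 member with the reverse pattern, which 7.53% of genes had.

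**Figure D5:**
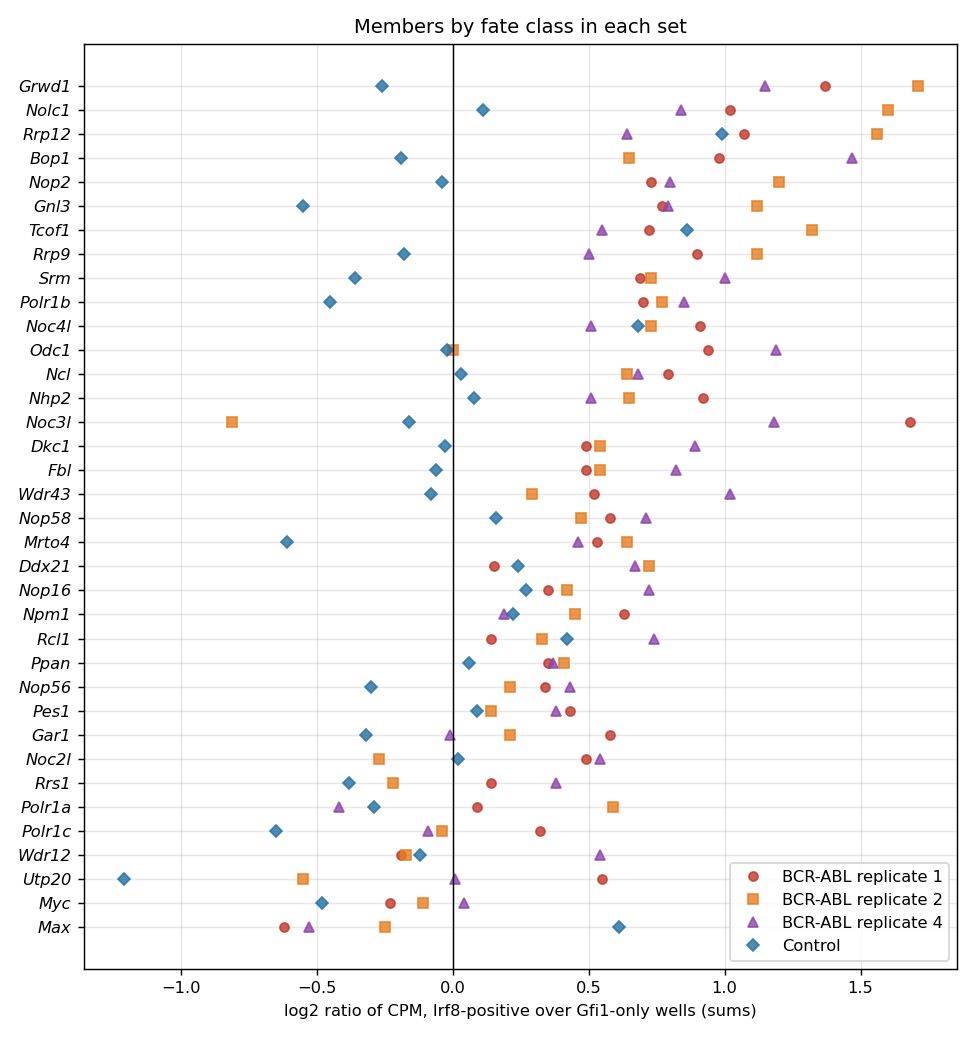
Log2 ratio of summed CPM in Irf8-positive over Gfi1-only wells for each member and set (Mycn left out), with members ordered by the mean of the BCR-ABL sets. For 26 of 37 members all 3 BCR-ABL sets lie above 0 (16.8% of 19180 genes tested do), and for 13 of these Control lies below 0 (5.17% of genes), as for Gnl3 at -0.55 and Srm at -0.36, while Max shows the reverse.

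Set against Control within 1 class at a time, BCR-ABL Irf8-positive wells had 35 of 36 members tested at a positive log2 fold change (median 0.43, beside 0.02 over all genes), with 10 higher and 0 lower at the nominal level, where 2.14% and 2.39% of 17773 genes were. Nolc1 (341, 358 and 331 against 213 CPM, log2 fold change 0.72, SE 0.16), Mrto4 (106, 98.2 and 96 against 57 CPM, 0.84, SE 0.20) and Ncl (0.54, SE 0.14) had the smallest p, each with an adjusted p of 0.993. All 3 BCR-ABL sets were above Control for these 3 genes, and the share of all genes in that order in these wells was not counted. Fewer members were higher at the nominal level with BCR-ABL replicate 1 or 2 left out, and more with replicate 4 left out. The median was then 0.442, 0.432 and 0.336, beside -0.014, -0.007 and -0.001 over all genes. Within Gfi1-only wells the median was -0.19 beside 0.22 over all genes, with 25 members lower, 2 higher (Max and Noc4l) and 2 lower (Srm and Polr1c) at the nominal level, where 10.5% and 4.45% of 17066 genes were. No member and no gene passed with edgeR in either class, and DESeq2 called 2 members in each. Within Gfi1-only wells without BCR-ABL replicate 1, 2 or 4, the median was -0.177, -0.183 and -0.229, beside 0.139, 0.215 and 0.135 over all genes. These comparisons share their wells with those between classes and are the same values seen from the other side.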

How the data were processed

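The authors deposited raw counts, with wells as columns and Ensembl genes as rows (GSNAP, HTSeq 0.5.3p3 and build mm10, per the submitters' processing notes). Annotation release and strand setting: not given in the sources used here. Symbols and coordinates came from GENCODE vM21. Of all reads 44.92% lay on genes. Spike-in and summary rows were left out.

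Wells were kept from 50000 gene reads and 1000 genes upwards (323 of 384, median 1483694 reads). No doublet caller was run. Scores used wells thinned to 674952 reads (290 wells). Wells are not replicates, so counts were summed per set or per class and set and tested with edgeR 4.0.16 (quasi-likelihood, TMM, filterByExpr, adjusted p under 0.05 over all genes) in R 4.3.3. The code was run on simulated counts that varied less between sums than these data, so that check does not cover their spread. DESeq2 1.42.0 was an alternative. BCR-ABL against Control has 2 residual degrees of freedom, all from BCR-ABL sets, so p-values measure the spread between sets, which may be technical. The same holds within 1 fate class and for the Irf8-positive comparisons, including those in Control and of the difference. The lone Control is assumed to vary like them. Reads are not independent molecules, so limits from 0 counts cover counting error only.

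The members, lists and tests were chosen with earlier results of these data known. Genes named are Myc, Mycn and Max, those past the test or else the 6 with the smallest p, up to 3 per direction of other lists, the 10 most like the score and up to 6 promoters with CACGTG. Other members named, and the choice among these, were picked after their values had been seen. The Gfi1-only comparison with Control could not be run at 10 reads, since Control held 8 such wells, and was run at 20.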

Additional observations from a re-analysis of the deposited data

Results flagged for a closer look

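In the module score of Irf8-positive minus Gfi1-only wells, every BCR-ABL set was above 0 (1.11, 1.18 and 1.02) and the Control set below (-0.186). This difference between conditions was not tested for the score, since Control is 1 set. For 13 single members the summed CPM ratio was likewise above 0 on the log2 scale in all 3 BCR-ABL sets and below 0 in Control, a pattern that 5.17% of 19180 genes tested had. In Control it was -0.45 for Polr1b, -0.06 for Fbl, -0.3 for Nop56, -0.03 for Dkc1, -0.18 for Rrp9, -0.08 for Wdr43, -0.19 for Bop1, -0.04 for Nop2, -0.55 for Gnl3, -0.26 for Grwd1, -0.61 for Mrto4, -0.36 for Srm and -0.02 for Odc1. For Odc1 the ratio in BCR-ABL replicate 2 was 0.00 at the precision given. Max showed the reverse, as did 7.53% of genes, at -0.62, -0.25 and -0.53 in the BCR-ABL sets and 0.61 in Control. The test of the difference itself, in edgeR, gave adjusted p of 0.408 for Gnl3 and Srm, 0.410 for Polr1b, Grwd1 and Mrto4 and 0.486 for Max, so none passed.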

How the results depend on the processing

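No member passed in BCR-ABL against Control under any alternative run. The score difference of 0.01 was 0.01 with a pseudocount of 10, 0.017 unthinned, 0.059 with medians and 0.008 without Npm1, Ncl, Srm and Odc1, each within the spread between BCR-ABL sets. It was -0.097 to 0.152 with 1 BCR-ABL set left out, the latter without replicate 4, where the SD of the other two was 0.103. Members past the test in S against low wells went from 5 to 13 with DESeq2, 2 without the replicate block (no replicate block) and 0 with any 1 set left out. For S, 91 genes were called higher and 15 lower over the whole table without the block. Without it, members called stayed at 0 for G2/M against low and for Gfi1-only against Irf8-only, with 128 genes higher and 17 lower over the whole table for G2/M (81 and 13 with it). The Irf8-positive comparisons were not run without the block. DESeq2 also called 14 members for Gfi1-only against Irf8-only, 3 for G2/M, 2 for BCR-ABL against Control within Gfi1-only and 2 within Irf8-positive wells, 21 for Irf8-positive against Gfi1-only in BCR-ABL sets and 9 for the difference of that effect, where edgeR called 0. Over all genes DESeq2 called 394 higher and 163 lower for BCR-ABL against Control, 551 and 480 for Gfi1-only against Irf8-only, 1100 and 334 within Gfi1-only and 168 and 33 within Irf8-positive wells, 815 and 791 for Irf8-positive against Gfi1-only in BCR-ABL sets, 850 and 443 in Control and 186 and 531 for the difference, each 0 and 0 with edgeR. For S it called 1125 and 723 (edgeR 104 and 25) and for G2/M 848 and 548 (edgeR 81 and 13). Median log2 fold changes moved for Gfi1-only against Irf8-only from -0.544 to -0.338 at 20 reads and -0.327 with 8 wells per class, both of which bring in Control (-0.533 at 20 reads without Control, added after seeing the data), for BCR-ABL against Control within Gfi1-only wells between -0.229 and -0.177 with 1 set left out, and for Irf8-positive against Gfi1-only in BCR-ABL sets between 0.49 and 0.644. In Control that median of -0.016 was -0.091 with RLE factors and with DESeq2 and 0.002 with no filter on low counts. The difference of the effect was 0.651 with RLE and DESeq2 and 0.458 to 0.627 with 1 set left out. Over all genes its median moved from -0.28 to -0.215 with RLE, -0.092 with DESeq2 and -0.672 with no filter on low counts. The median of members was 0.57 with no filter. The Spearman correlation of the score with Myc in low wells alone was -0.08, 0.24 and 0.67 in BCR-ABL replicates 1, 2 and 4.

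Single genes changed sign where values were near 0: Odc1 in BCR-ABL against Control among low wells (-0.086), and Max for Gfi1-only against Irf8-only (-0.098 at 20 reads, -0.049 with 8 wells per class, both with Control, and 0.205 at 20 reads without it), for S against low (-0.002 with DESeq2, -0.051 at a z limit of 0.5, -0.037 without the replicate block, and from -0.128 without BCR-ABL replicate 1 to 0.172 without replicate 4) and within Irf8-positive wells (-0.019 without BCR-ABL replicate 2 and -0.046 without replicate 4, against 0.167 without replicate 1). The cause of the other changes was not tested. No paired analysis was possible for BCR-ABL against Control because Control is 1 set, and none could leave out a set for Gfi1-only against Irf8-only, which has 2. Thinned sums for BCR-ABL against Control within Gfi1-only wells were not run.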
